A study of Mus musculus with 6 samples.

Results

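The genes described are 42 genes of DNA replication and nucleotide supply, taken from the 20667 genes that have a named probe on a mouse expression array. They were chosen by name, as the genes that build, load and run the replication machinery or feed it with deoxynucleotides, and every non-control probe of each gene was read, 48 probes of 55681 in all. The samples came from mice on a C57BL6/J background, either Satb1-null or their wild type littermates, at E18.5, and Satb1 is a nuclear protein that organises chromatin. From the fetal liver of each genotype, 3 blood progenitor populations were sorted. Haematopoietic stem cells (HSC) were Lin- c-kitHi Sca-1+ Flt3-, lymphoid-primed multipotent progenitors (LMPP) were Lin- c-kitHi Sca-1+ Flt3+, and common lymphoid progenitors (CLP) were Lin- c-kitLo Sca-1Lo IL7Rα+. Each of the 6 combinations of genotype and population gave 1 single-colour array from 6.1 ng of total RNA, which was amplified. The sources used here give neither the number of embryos behind an array nor whether the populations of a genotype share embryos.

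DNA is copied once per cell cycle in steps that different proteins carry out. In G1 the origin recognition complex, with Cdc6 and Cdt1, loads the ring of Mcm2 to Mcm7 onto origins, and in S phase Cdc45, the GINS complex and Mcm10 turn that ring into an active helicase. Primase and the polymerases then copy both strands on the sliding clamp Pcna, with deoxynucleotides made by ribonucleotide reductase, thymidylate synthase and thymidine kinase. Many of these genes are known targets of E2F factors, which are released when cyclin-dependent kinases inactivate the retinoblastoma protein. Stem cells of the blood system divide more rarely than the progenitors they give rise to, although those of the fetal liver are known to cycle more than those of adult marrow.

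A level below is the log2 processed signal of a gene's probe minus the 75th percentile of its array, so it compares a gene with itself across arrays and never with another gene. A difference is a log2 difference, and 1 is a 2-fold difference. Between 12580 and 13207 genes were well above background on an array, no spot was saturated, and the number of arrays limits the precision. The scanner software's own error of a difference between 2 arrays had a median of 0.204 over these genes, and it leaves out the spread between embryos, sorts and amplifications. Population and genotype differences were fitted with limma over the 6 arrays, in a model of population plus genotype, for the 13017 genes that 3 or more arrays showed well above background. A gene is called here at an adjusted p below 0.05 (Benjamini-Hochberg over all 13017 genes). Each population is then represented by 2 arrays, which differ in genotype, and the p-values measure only the spread between these arrays. On the 1 slide used, each genotype had a row and each population a column of its own, so neither can be told apart from its place on the slide. The Satb1 probe differed between genotypes by less than 2-fold in each population, and since its position relative to the deletion is not known here, it does not check the genotype labels.

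All 42 genes had a probe, and 41 of them were well above background on all 6 arrays and were tested. The exception was Ccne2, cyclin E2, which was well above background on the CLP arrays alone. No value of these genes was missing for an outlier mark. In the gene lists and values that follow, numbers are in the order HSC, LMPP, CLP.

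The promoters of 6 of these genes are shown, those of genes called between populations and of genes whose difference was near 0. RefSeq's promoter table (GRCm38.p6) held 34 of the 42 genes, with 250 bases before the start and 50 bases from it. The first 4 promoters belong to the genes called between CLP and HSC, and the last 2 to the genes with an E2F match whose CLP minus HSC difference lay nearest to 0. Capitals mark matches to the E2F letters TTTGGCGC, TTTCCCGC, TTTCGCGC or TTTGCCGC, or to the CCAAT box (CCAAT), on either strand.
Cdc6 (chr11:98907901-98908200, plus strand): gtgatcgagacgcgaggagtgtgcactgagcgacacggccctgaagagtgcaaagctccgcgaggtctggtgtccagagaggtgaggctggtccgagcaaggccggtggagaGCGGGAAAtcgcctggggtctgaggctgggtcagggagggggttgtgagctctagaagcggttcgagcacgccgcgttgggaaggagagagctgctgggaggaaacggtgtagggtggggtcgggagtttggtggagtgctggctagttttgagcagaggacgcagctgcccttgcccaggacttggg
Rrm2 (chr12:24708004-24708303, plus strand): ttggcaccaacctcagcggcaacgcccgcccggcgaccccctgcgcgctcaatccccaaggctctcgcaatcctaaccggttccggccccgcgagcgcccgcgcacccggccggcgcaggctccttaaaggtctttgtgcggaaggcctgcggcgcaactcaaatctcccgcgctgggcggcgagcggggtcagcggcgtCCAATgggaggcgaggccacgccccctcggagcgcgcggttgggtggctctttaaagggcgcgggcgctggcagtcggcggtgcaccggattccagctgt
Tk1 (chr11:117825965-117826264, minus strand): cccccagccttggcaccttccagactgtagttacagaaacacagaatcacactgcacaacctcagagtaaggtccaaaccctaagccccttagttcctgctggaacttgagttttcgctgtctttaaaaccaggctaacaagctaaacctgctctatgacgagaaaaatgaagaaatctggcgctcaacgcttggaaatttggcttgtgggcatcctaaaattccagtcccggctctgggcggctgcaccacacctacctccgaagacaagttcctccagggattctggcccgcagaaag
Ccne1 (chr7:38107441-38107740, minus strand): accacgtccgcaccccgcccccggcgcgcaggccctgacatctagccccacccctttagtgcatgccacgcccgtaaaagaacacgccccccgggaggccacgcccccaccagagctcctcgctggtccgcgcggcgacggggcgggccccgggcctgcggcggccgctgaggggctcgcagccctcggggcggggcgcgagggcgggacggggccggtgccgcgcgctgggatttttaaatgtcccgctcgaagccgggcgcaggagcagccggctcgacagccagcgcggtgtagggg
Rfc3 (chr5:151651159-151651458, minus strand): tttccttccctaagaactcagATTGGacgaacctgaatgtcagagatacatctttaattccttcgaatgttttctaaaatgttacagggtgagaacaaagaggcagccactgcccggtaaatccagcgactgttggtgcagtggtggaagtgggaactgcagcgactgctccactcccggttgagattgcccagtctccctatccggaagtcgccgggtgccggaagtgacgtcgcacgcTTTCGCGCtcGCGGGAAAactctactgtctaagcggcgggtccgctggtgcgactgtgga
Pold1 (chr7:44548766-44549065, minus strand): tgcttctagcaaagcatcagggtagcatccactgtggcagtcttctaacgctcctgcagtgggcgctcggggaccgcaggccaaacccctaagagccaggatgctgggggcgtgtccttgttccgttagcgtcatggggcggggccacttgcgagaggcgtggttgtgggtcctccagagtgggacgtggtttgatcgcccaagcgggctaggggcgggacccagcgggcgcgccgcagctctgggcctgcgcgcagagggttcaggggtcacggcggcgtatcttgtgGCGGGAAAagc
Cdc6 and Pold1 each hold 1 E2F match, with the same letters GCGGGAAA, and Rfc3 holds 2. Rrm2 and Rfc3 hold 1 CCAAT box each. In Tk1 and Ccne1 these letters do not occur within the 300 bases shown.

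The E2F letters occurred in the promoters of 12 of the 34 genes (35.3%), against 2.6% of the 27025 genes in the table and 4.54% of the 10454 genes tested that have a promoter there. The 12 were Mcm3, Mcm5, Mcm6, Mcm7, Orc1, Cdc6, Cdt1, Pola1, Pold1, Rfc3, Lig1 and Uhrf1. CCAAT boxes occurred in 20 of 34 (58.8%), against 41.1% of the genes in the table and 42.7% of those tested. E2F and CCAAT matches overlapped in 1 promoter of these genes and in 5 of all 32851 promoters. The medians of genes with and without these letters lay close together, a comparison that was not tested. The median CLP minus HSC difference was 0.62 for the 12 genes with E2F letters (0.08 to 1.5) and 0.68 for the 22 without (-0.21 to 2.32). It was 0.68 for the 20 genes with a CCAAT box and 0.7 for the 14 without.

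Over the whole set, the median level was lowest in HSC and highest in CLP in both genotypes as centred here, while the sign of the fitted LMPP minus HSC median (0.21) depended on the centring and turned to -0.03 under 1 alternative. Relative to each gene's mean over the 6 arrays, the median of the 41 genes was -0.41, -0.05 and 0.31 in wild type and -0.2, -0.06 and 0.41 in the null set. The same medians over the 11019 genes well above background on all arrays were -0.15, 0.07 and 0.01 in wild type and -0.02, 0.04 and 0.04 in the null set. The wild type HSC array held the lowest value of 25 of the 41 genes and the null HSC array that of 8. The highest value lay on the wild type CLP array for 13 genes and on the null CLP array for 16. In 14 of 41 genes (34.1%) the level went up from HSC to LMPP and again to CLP in both genotypes, against 9.01% of all genes tested. The 14 were Mcm3, Mcm6, Cdt1, Gmnn, Gins1, Prim2, Pcna, Rpa1, Fen1, Lig1, Rrm2, Tk1, Uhrf1 and Slbp. Some of their steps lay below the median scanner error of 0.204. From LMPP to CLP, for example, Mcm6 differed by 0.1 in wild type and 0.04 in the null set, and Pcna by 0.0 in wild type. The opposite order was found for 0 of the 41 genes and 5.36% of all genes.

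**Figure D1:**
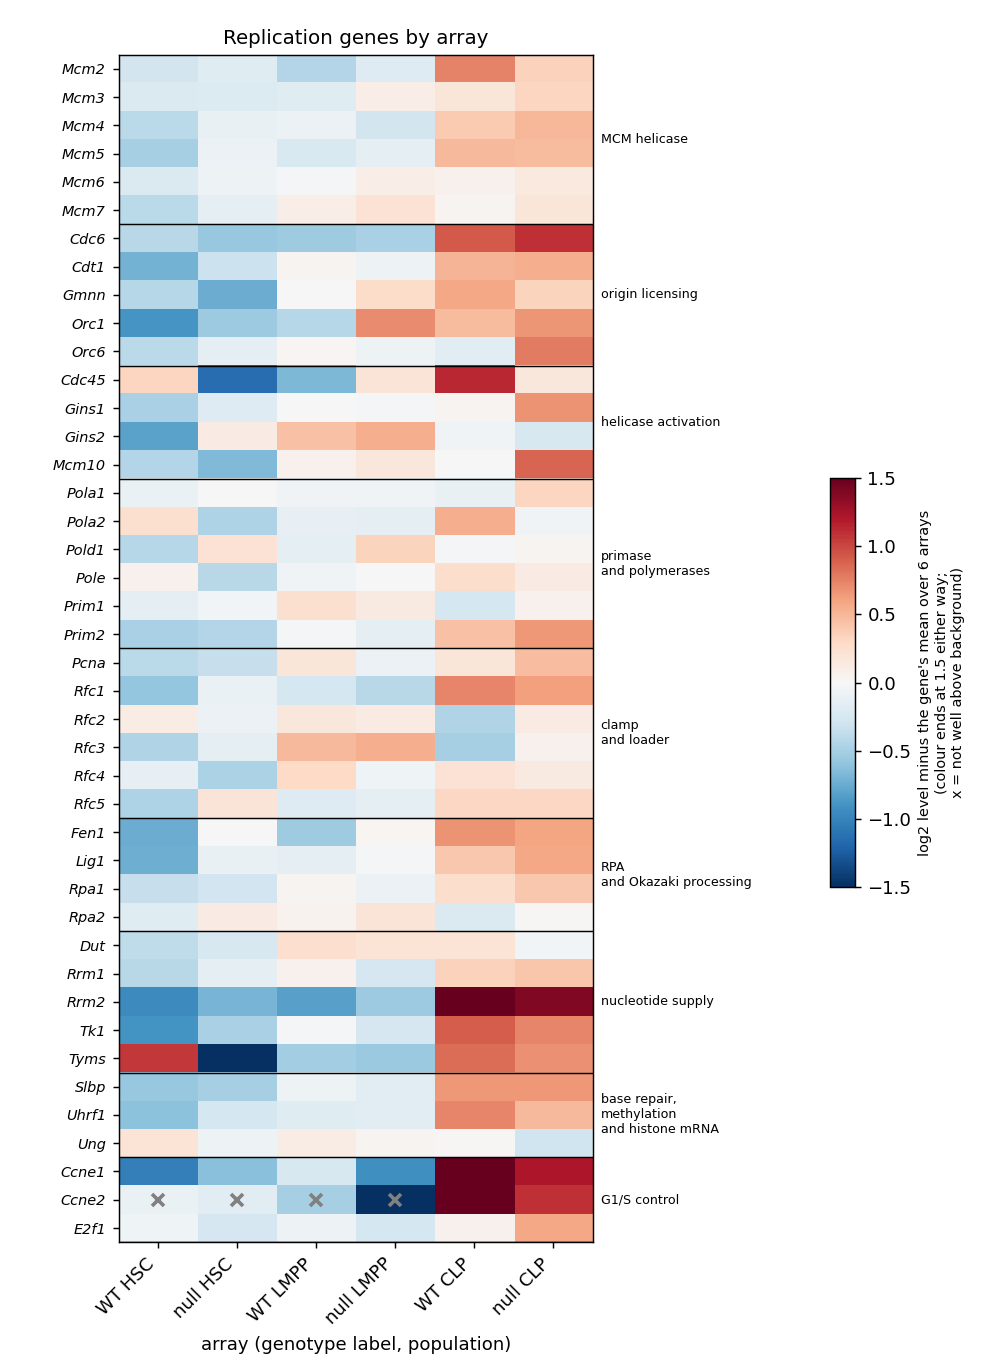
Level of each of the 42 genes on each array (columns, HSC, LMPP and CLP with the wild type and null array side by side) minus the gene's mean over the 6 arrays, as a log2 difference in colour. Genes are in rows, grouped by role, and a cross marks a value not well above background. The HSC columns are mostly blue (wild type median -0.41) and the CLP columns mostly red (null median 0.41), while Tyms and Cdc45 break the pattern within HSC.

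Of the 3 population comparisons, CLP against HSC had the highest median over these genes. It was 0.7 over 41 genes (1.63-fold higher in CLP), against 0.02 over all 13017 genes, and 37 of 41 genes (90.2%) had a fitted difference above 0, against 51.3% of all genes. By limma's adjusted p, 4 of 41 genes were called higher in CLP, Rrm2, Ccne1, Tk1 and Cdc6, where 5.16% of all genes were. None of the 41 was called lower, where 3.73% of all genes were. The 4 genes made up 9.76% of the set. An unadjusted p below 0.05 is a looser threshold, which 17 of 41 genes (41.5%) passed upwards against 15.9% of all genes, and 0 passed downwards against 12.2%. Both CLP arrays lay above the other 4 arrays for 23 of 41 genes (56.1%), against 21.6% of all genes, and below them for 0, against 19.1%. Both CLP arrays lay above both HSC arrays for 29 of 41 genes, against 30.9%, and below them for 0, against 24.7%. At an adjusted p below 0.10, a threshold added after seeing the data, 10 of 41 genes were higher against 9.76% of all genes, and 0 lower against 7.02%. On single arrays, 14 of 42 genes were past 2-fold higher in wild type, against 17.8% of all genes, and 11 of 42 in the null set, against 15.0%. None was past 2-fold lower in either, against 15.8% and 14.1%. The difference was past 2-fold in both genotypes for 7 of 42 genes, against 9.08% of all genes compared, and lower for 0, against 6.66%. These were Orc1, Cdc6, Gmnn, Rrm2, Tk1, Slbp and Ccne1. The median of all genes itself moved with the centring, to 0.41 when arrays were centred on their medians and to -0.29 on the 75th percentile of detected probes, and that of the replication genes lay 0.68 above it each time. The calls were less steady, since leaving out any 1 array left 0 to 2 of the 4, and no called gene changed direction. In bulk RNA, more cells in S phase and more of these RNAs per cell cannot be told apart.

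The CLP arrays differed from the others in lineage markers as well. The summed linear signal of 12 erythroid markers, relative to the 75th percentile, was 49.3, 39.2 and 798 in wild type and 79.9, 117 and 848 in the null set, and all 12 were well above background on both CLP arrays. The sum of 7 granulocyte and monocyte markers was 247, 184 and 840 in wild type and 315, 212 and 742 in the null set. The 6 macrophage markers summed to between 0.575 and 1.94 on the HSC and LMPP arrays and to 8.05 and 12.6 on the CLP arrays, and C1qa was well above background nowhere. For 7 megakaryocyte markers the sums were 6.95, 8.04 and 51.8 in wild type and 10.2, 20.8 and 32.8 in the null set. Each sum follows its brightest genes, such as Hba-a1 (level 8.83) and Slc4a1 (7.82) on the wild type CLP array. By the fit, Ermap (-0.46, erythroid), C1qb (-0.49, macrophage), Gp1bb (-0.15) and Gp9 (-0.17, both megakaryocyte) were lower in CLP than in HSC, none called. The other tested markers of these lists were higher. The sum of 6 stem cell markers went down, from 81.7 and 74.3 to 18.8 in wild type and from 99.9 and 71.9 to 17.9 in the null set. B lineage sums were 1.03, 1.75 and 7.99 in wild type and 3.79, 2.71 and 9.2 in the null set. Early lymphoid sums, over 5 markers, were 0.683, 2.12 and 3.77 in wild type and 0.72, 2.31 and 5.72 in the null set. The wild type CLP sum came mostly from Il7r (level 1.61). By the fit, Il7r (1.77) and Rag1 (1.99) rose from LMPP to CLP, while Rag2 (-0.86) and Dntt (-0.63) fell. Of these only Il7r was called, and Ebf1 was well above background on 1 array. Of the 4 sort markers, Il7r, which is also on the early lymphoid list, rose by 3.76 from HSC to CLP (limma adjusted p = 0.0132). The CLP minus HSC differences of Kit (-1.26), Ly6a (-0.47) and Flt3 (0.06) were not called. Of the 5 T lineage markers, Cd3d, Cd3g and Bcl11b were well above background on no array, Lck on all 6 and Cd3e on 5. Their sums were 1.31, 2.25 and 2.09 in wild type and 1.31, 2.0 and 1.56 in the null set. The 5 hepatocyte markers summed to 0.268 to 0.558 with Ttr well above background nowhere. The part of these markers' cells in the replication gene differences was not tested.

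The largest difference of a single gene between CLP and HSC was that of Rrm2, in the nucleotide supply group. Differences within this group ran from 0.39 for Dut to 2.32 for Rrm2. Rrm2 encodes the small subunit of ribonucleotide reductase, which makes deoxynucleotides from ribonucleotides and is made mainly in S phase. Its levels were 3.05, 3.19 and 5.61 in wild type and 3.31, 3.46 and 5.39 in the null set. HSC and LMPP lay close together and both CLP arrays lay far above them, with no overlap. Rrm2 rose 5.0-fold from HSC to CLP (2.32 ± 0.28 standard error, limma adjusted p = 0.0188) and 4.51-fold from LMPP to CLP (2.17 ± 0.28, adjusted p = 0.0196). Rrm1, the large subunit, whose protein is long-lived, read 3.89, 4.37 and 4.65 in wild type and 4.16, 4.06 and 4.72 in the null set. Its CLP arrays were also the highest, but the difference of 0.65 from HSC was not called.

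Tk1, thymidine kinase, salvages thymidine in S phase. It read 1.61, 2.49 and 3.41 in wild type and 2.02, 2.25 and 3.24 in the null set, higher at each step over the 3 populations in both genotypes. The CLP level was 2.85-fold above that of HSC (1.51 ± 0.29, limma adjusted p = 0.0472), while the step from LMPP to CLP (0.95 ± 0.29) was not called, at an adjusted p of 0.12. Dut, which removes dUTP and so keeps uracil out of DNA, read 4.87, 5.5 and 5.46 in wild type and 5.01, 5.46 and 5.21 in the null set, highest in LMPP in both. Its CLP minus LMPP difference in wild type was -0.04, below the scanner error in size. Tyms, thymidylate synthase, had no common course. Its levels were -0.5, -2.08 and -0.72 in wild type and -3.05, -2.11 and -0.87 in the null set. The populations overlapped because the HSC arrays lay at opposite ends of the range, and its CLP minus HSC difference of 0.98 had a standard error of 0.69 (limma adjusted p = 0.411).

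Of the 5 origin licensing genes 1 was called higher in CLP than in HSC, where 5.16% of all genes were, and the median difference was 1.05 (0.59 to 1.5), against 0.02 over all genes. Cdc6 is the ATPase that joins the origin recognition complex to load the Mcm ring. It read 2.98, 2.87 and 4.32 in wild type and 2.83, 2.91 and 4.5 in the null set, flat between HSC and LMPP and higher on both CLP arrays. Cdc6 rose 2.83-fold from HSC (1.5 ± 0.26, limma adjusted p = 0.0365) and 2.87-fold from LMPP (1.52 ± 0.26, adjusted p = 0.0334). The second Cdc6 probe was well above background on 4 arrays and read -3.88, -3.59 and -1.48 in wild type and -5.82, -2.64 and -2.38 in the null set. Its CLP arrays were also the highest, but its LMPP to CLP step in the null set was 0.26, against 1.59 by the brighter probe. Cdt1, the loading factor, read 2.34, 3.09 and 3.56 in wild type and 2.72, 2.97 and 3.59 in the null set. Gmnn encodes geminin, which blocks Cdt1 outside G1, and read 2.67, 3.09 and 3.68 in wild type and 2.35, 3.37 and 3.43 in the null set. The factor and its inhibitor thus had like differences between CLP and HSC, 1.05 ± 0.27 and 1.04 ± 0.29, neither called (limma adjusted p = 0.085 and 0.0959).

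Orc1, the origin recognition subunit whose amount varies over the cell cycle in mammalian cells, was low in HSC. It read -1.35, -0.9 and 0.01 in wild type and -1.01, 0.24 and 0.19 in the null set. The LMPP arrays differed by more than 2-fold, the null array lying with CLP and the wild type array nearer to HSC. Its CLP minus HSC difference of 1.28 ± 0.34 was not called (limma adjusted p = 0.0879). Orc6, another subunit, read 3.11, 3.55 and 3.35 in wild type and 3.37, 3.44 and 4.3 in the null set, where the null CLP array stood above the rest.

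Cyclin E, which with Cdk2 starts S phase, was highest in CLP by both of its genes. Ccne1 read -0.27, 0.51 and 2.36 in wild type and 0.13, -0.17 and 1.97 in the null set. Both CLP arrays lay above the other 4, and Ccne1 rose 4.7-fold from HSC (2.23 ± 0.35, limma adjusted p = 0.0324) and 3.98-fold from LMPP (1.99 ± 0.35, adjusted p = 0.0374). A second Ccne1 probe, at -2.51, -1.14 and -0.01 in wild type and -1.0, -1.32 and 0.52 in the null set, placed the CLP arrays highest too. Ccne2 read -2.75 on the wild type CLP array and -3.17 on the null one, with HSC and LMPP not well above background. Against the lowest signal well above background, its CLP minus HSC difference was at least 1.28 in wild type and at least 0.87 in the null set. E2f1, the transcription factor, read 3.22, 3.21 and 3.35 in wild type and 3.03, 3.02 and 3.86 in the null set. Its fitted CLP minus HSC difference of 0.48 was not called, and the wild type difference was the smaller one.

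None of the 6 genes of the Mcm2 to Mcm7 ring was called in any comparison. Their CLP minus HSC differences ran from 0.25 to 0.78, all above 0, with a median of 0.58. Mcm5 read 2.95, 3.22 and 3.94 in wild type and 3.36, 3.32 and 3.93 in the null set, and had the largest difference of the 6. Mcm2 read 1.49, 1.33 and 2.51 in wild type and 1.59, 1.57 and 2.11 in the null set, higher in CLP with no difference between HSC and LMPP beyond the scanner error. Mcm6 varied least of the 6, at 7.69, 7.88 and 7.97 in wild type and 7.83, 8.0 and 8.05 in the null set. Mcm7 read 5.73, 6.24 and 6.18 in wild type and 5.99, 6.35 and 6.32 in the null set, with the CLP minus LMPP difference nearest to 0 of all 41 genes (-0.04). Between LMPP and CLP the fitted differences of Mcm2 and Mcm5 were 0.86 and 0.67, and whether subunits of the ring differ in course was not tested.

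The 4 genes that activate the helicase had a median CLP minus HSC difference of 0.84 and no call. Gins2, a GINS subunit, read 1.99, 3.24 and 2.74 in wild type and 2.92, 3.34 and 2.56 in the null set, highest in LMPP in both. Gins1, another subunit of the same complex, read 1.62, 2.1 and 2.15 in wild type and 1.91, 2.09 and 2.78 in the null set. Gins1 was highest in CLP in both genotypes, but its CLP minus LMPP difference in wild type was 0.05, below the scanner error. Mcm10 read 0.69, 1.19 and 1.12 in wild type and 0.46, 1.29 and 2.0 in the null set, with HSC lowest in both. Cdc45, which forms the active helicase with GINS and the Mcm ring, read -0.01, -1.0 and 0.8 in wild type and -1.47, -0.14 and -0.16 in the null set. Its population order differed between the genotypes, and its CLP minus HSC difference of 1.06 had a standard error of 0.6.

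Primase and the polymerases had the lowest median of the role groups, 0.25 between CLP and HSC over 6 genes and no call. Prim1, the catalytic primase subunit, had the CLP minus HSC difference nearest to 0 (-0.02) and read 1.59, 1.97 and 1.46 in wild type and 1.69, 1.86 and 1.79 in the null set. Prim2, its partner subunit, read 0.73, 1.18 and 1.65 in wild type and 0.78, 1.08 and 1.87 in the null set. Its levels went up in steps in both genotypes, by 1.0 ± 0.26 from HSC to CLP (limma adjusted p = 0.082). Pola1, the catalytic subunit of polymerase alpha, read 2.79, 2.84 and 2.78 in wild type and 2.9, 2.84 and 3.21 in the null set. Pola2, Pold1 and Pole had CLP minus HSC differences of 0.35, 0.11 and 0.38 by their brightest probes. The Pole probes disagreed. In the null set the CLP minus HSC difference was 0.56 by the brighter probe and 1.68 by the other, and in LMPP the null minus wild type difference was 0.05 by the brighter probe and -1.15 by the other.

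Of the clamp and its loader, Pcna read 4.98, 5.57 and 5.57 in wild type and 5.04, 5.3 and 5.85 in the null set, lowest in HSC. The 5 loader genes Rfc1 to Rfc5 form a complex, yet their CLP minus HSC differences ran from -0.18 for Rfc2 to 1.01 for Rfc1. Rfc1, the large subunit, read 3.45, 3.76 and 4.76 in wild type and 3.93, 3.61 and 4.64 in the null set, past 2-fold between LMPP and CLP in both genotypes. Rfc3 was highest in LMPP in both genotypes and read -0.36, 0.58 and -0.41 in wild type and -0.05, 0.64 and 0.16 in the null set. It had the lowest CLP minus LMPP difference of the 41 genes (-0.74 ± 0.27, limma adjusted p = 0.166). Rfc4 cannot be placed, since its probes disagreed. The brighter probe read 1.82, 2.24 and 2.16 in wild type and 1.46, 1.88 and 2.08 in the null set, a CLP minus HSC difference of 0.48, whereas the other read 0.16, 0.34 and -0.86 in wild type and 0.47, -0.11 and -0.08 in the null set, a difference of -0.78.

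Fen1 and Lig1, which trim and seal Okazaki fragments, were highest on both CLP arrays. Fen1 read 3.39, 3.6 and 4.8 in wild type and 4.12, 4.16 and 4.72 in the null set. Lig1 read 4.95, 5.54 and 6.08 in wild type and 5.57, 5.66 and 6.26 in the null set. The wild type CLP minus HSC differences of both passed 2-fold and the null ones did not, and the fitted values of 1.0 and 0.91 were not called. The single-strand binding subunits Rpa1 and Rpa2 had differences of 0.65 and -0.07.

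Slbp binds the stem-loop of replication-dependent histone mRNAs and read 2.15, 2.64 and 3.36 in wild type and 2.22, 2.56 and 3.36 in the null set. Its genotypes gave almost the same course, with a CLP minus HSC difference of 1.17 ± 0.25 that was not called (limma adjusted p = 0.0562) and a null minus wild type difference of 0.0. Uhrf1, which brings the maintenance methyltransferase to newly copied DNA, read 5.61, 6.04 and 6.95 in wild type and 5.96, 6.07 and 6.71 in the null set. Both of its probes and both Slbp probes had CLP as the highest population. Ung, which cuts uracil out of DNA, went against the set at 9.48, 9.38 and 9.29 in wild type and 9.2, 9.31 and 8.98 in the null set. Its CLP minus HSC difference of -0.21 was the lowest of the 41 genes, close to the scanner error.

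**Figure D2:**
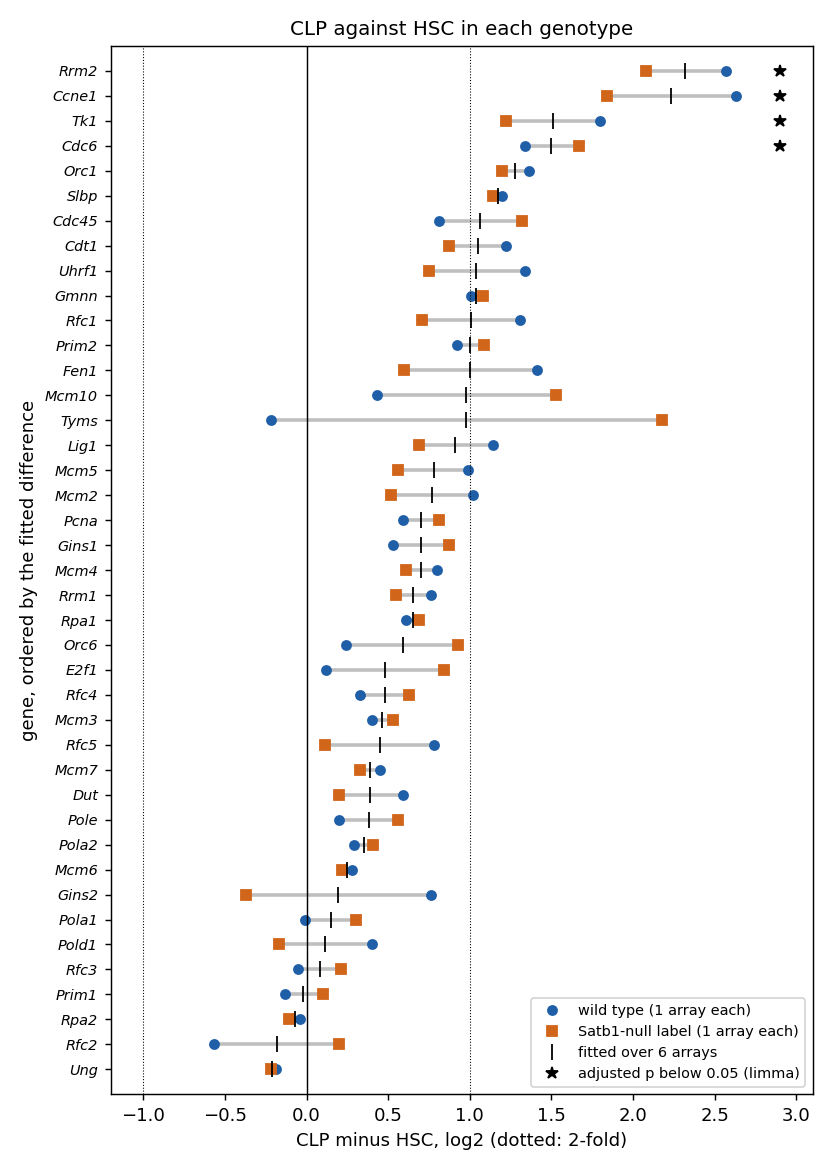
CLP minus HSC difference (x axis, log2) of the 41 genes tested (y axis, ordered by the fitted difference), from 1 array per population in wild type (circles) and in the null set (squares), with the value fitted over 6 arrays as a tick and a star for a limma adjusted p below 0.05. The 4 starred genes Rrm2, Ccne1, Tk1 and Cdc6 lie past 2-fold in both genotypes, and the widest gap between genotypes is that of Tyms (-0.22 and 2.18).

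The comparison of CLP with LMPP shares its CLP arrays with the one above. The median over the 41 genes was 0.37, against -0.06 over all genes, and 32 of 41 genes had a difference above 0, against 46.0% of all genes. By limma's adjusted p, 3 of 41 genes rose from LMPP to CLP, Rrm2, Ccne1 and Cdc6, against 4.82% of all genes, and 0 fell, against 3.99%. Leaving out any 1 array left 0 to 2 calls. At an unadjusted p below 0.05, 9 genes were higher and 1, Rfc3, was lower, against 13.0% and 14.7% of all genes. The genes past 2-fold in both genotypes were Cdc6, Rfc1, Tyms, Rrm2 and Ccne1, 5 of 42, against 8.25% of all genes, and 0 were past it downwards, against 7.63%. Both CLP arrays lay below both LMPP arrays for 7 of 41 genes, Gins2, Prim1, Rfc2, Rfc3, Rpa2, Dut and Ung, against 31.7% of all genes, and above them for 25, against 27.1%.

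From HSC to LMPP the median difference was 0.21, against 0.12 over all genes, and it turned to -0.03 with the 75th percentile taken over probes well above background, when that of all genes was -0.12. In the fit as reported, 33 of 41 genes were above 0, against 60.4% of all genes. By limma's adjusted p, 0 of 41 genes were called in either direction, as were 0.0% of all genes. At an unadjusted p below 0.05, 1 gene, Rfc3, was higher, against 4.8% of all genes, and 0 were lower, against 3.71%. Both LMPP arrays lay above both HSC arrays for 21 of 41 genes, against 31.5% of all genes, and below them for 0, against 14.7%. Past 2-fold in both genotypes lay 0 genes, against 1.82% of all genes higher and 1.8% lower. The 4 largest differences were those of Orc1 (0.85 ± 0.34), Gins2 (0.84 ± 0.36), Rfc3 (0.81 ± 0.27) and Gmnn (0.72 ± 0.29), with limma adjusted p between 0.569 and 0.609. Ung had the difference nearest to 0. The lack of calls does not show that HSC and LMPP were alike.

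The wider replication programme gave other results by list. Of 42 further genes of licensing, the fork and chromatin assembly, 40 were tested, with a median CLP minus HSC difference of 0.43, against 0.02 over all genes. Asf1b, a histone chaperone, read 1.58, 2.12 and 4.4 in wild type and 2.26, 2.25 and 4.11 in the null set, and rose by 2.33 ± 0.33 from HSC to CLP (limma adjusted p = 0.0266). Donson, a replication fork factor, rose by 1.68 ± 0.33 (adjusted p = 0.049). Pold2, an accessory subunit of polymerase delta, went the other way and fell by 1.44 from LMPP to CLP (adjusted p = 0.0409). Asf1b was also called between CLP and LMPP (2.07 ± 0.33, adjusted p = 0.0297), and no other gene of the list was called. Thus only Asf1b and Donson of the 40 were called higher in CLP than in HSC, where 5.16% of all genes were. From LMPP to CLP only Asf1b was called higher and only Pold2 lower, where 4.82% and 3.99% of all genes were.

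Enzymes of nucleotide synthesis mostly lay lower in CLP than in LMPP. Over 31 of them the median was 0.31 from HSC to LMPP and -0.58 from LMPP to CLP, where 4 of 31 lay above 0, against 46.0% of all genes, and 1 was called lower, against 3.99%. Dctpp1, which breaks down dCTP, read 3.46, 4.14 and 2.57 in wild type and 3.56, 4.18 and 2.68 in the null set. It fell by 1.54 from LMPP to CLP (limma adjusted p = 0.03). Dck, deoxycytidine kinase of the salvage pathway, read 0.94, 1.54 and 2.61 in wild type and 1.39, 1.26 and 3.02 in the null set, and rose by 1.65 ± 0.31 from HSC to CLP (adjusted p = 0.0432).

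Genes that control entry into S phase moved in both directions. Of 28 genes, 7 rose and 4 fell from HSC to CLP by limma's adjusted p, against 5.16% and 3.73% of all genes, and the list median was 0.29. From LMPP to CLP 6 rose and 4 fell, against 4.82% and 3.99% of all genes. The 4 largest by fitted value were Cdkn2c (5.07), an inhibitor of the cyclin D kinases, Mycn (-3.61 ± 0.3), a Myc family factor, E2f2 (3.3 ± 0.35), an activating E2F, and Cdkn1c, another kinase inhibitor. Cdkn1c was not well above background on either CLP array, so from HSC to CLP it fell by at least 2.94 (limma adjusted p = 0.0292). The value of Cdkn2c counts the null HSC array, which was not well above background, at the lowest signal that was. E2f2 read 0.76, 1.08 and 4.31 in wild type and 0.75, 1.69 and 3.8 in the null set, and its limma adjusted p was 0.0162. Cdkn2c was well above background on 5 arrays and read -2.4, -3.63 and 1.65 in wild type and -4.72, -2.02 and 2.04 in the null set. Kinase inhibitors moved both ways, since Cdkn2c rose while Cdkn1a (-2.26 ± 0.25) and Cdkn1c fell. All 15 mitosis genes had differences above 0 in each of the 3 population contrasts, with a median of 0.66 from HSC to LMPP, 0.55 from LMPP to CLP and 1.26 from HSC to CLP. Of these, Plk1 (1.8 ± 0.28, adjusted p = 0.0313) and Ccnb1 (1.78 ± 0.26, adjusted p = 0.0285) rose from HSC to CLP, where 5.16% of all genes did. Differences above 0 made up 60.4%, 46.0% and 51.3% of all genes in these contrasts. No gene of the 4 lists was called between LMPP and HSC or between genotypes. The largest fitted genotype difference in the lists was that of Cdkn1a (1.22 ± 0.21, limma adjusted p = 0.84). It read 0.72, 0.57 and -1.67 in wild type and 1.8, 1.82 and -0.34 in the null set, past 2-fold higher in each population.

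**Figure D3:**
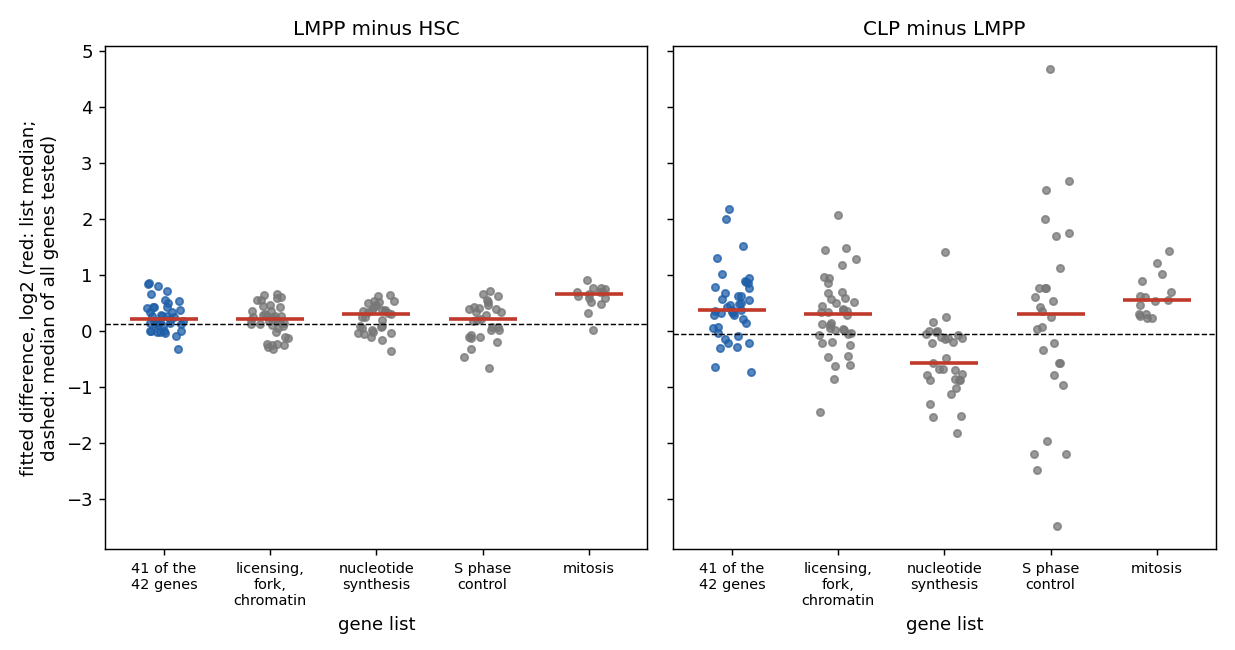
Fitted differences (y axis, log2) of LMPP minus HSC (left) and CLP minus LMPP (right) for 41 of the 42 genes and 4 further lists (x axis), 1 point a gene, with list medians in red and the median of all genes tested dashed. From LMPP to CLP nucleotide synthesis genes lie mostly below 0 (median -0.58) and the replication genes mostly above it (median 0.37).

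Whether loss of Satb1 moves these genes was examined last. Over the 3 populations the median null minus wild type difference was 0.07, against 0.06 over all genes, and it turned to -0.01 (all genes -0.03) with the 75th percentile over probes well above background. Of the replication genes, 29 of 41 genes were above 0, against 57.4% of all genes. By limma's adjusted p, 0 of 41 genes were called higher, against 0.00768% of all genes, and 0 lower, against 0.0%. At an unadjusted p below 0.05 the counts were again 0 and 0, against 3.03% and 2.59% of all genes. The 4 largest differences were those of Tyms (-0.91 ± 0.56), Orc1 (0.55 ± 0.28), Cdc45 (-0.52 ± 0.49) and Pola2 (-0.44 ± 0.24), with limma adjusted p from 0.84 to 0.867. Pola2, the second subunit of polymerase alpha, read -1.13, -1.5 and -0.83 in wild type and -1.84, -1.51 and -1.43 in the null set, lower or equal in each population. Slbp and Tk1 had the smallest differences, both 0.0. In every population the null array lay above the wild type one for 8 of 41 genes, Mcm3, Mcm6, Mcm7, Orc1, Pold1, Rfc3, Rpa2 and Lig1, against 15.6% of all genes. It lay below for 4, Pola2, Rfc4, Tyms and Ung, against 12.8%. Rfc4 did so by its brighter probe alone, as its other probe was higher on the null array in HSC (0.3) and CLP (0.78). Some of these differences lay below the scanner error, such as Pola2 (-0.01) and Tyms (-0.03) in LMPP and Mcm3 (0.02) in HSC.

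Within a population the comparison rests on 1 array of each genotype and has no test. The medians of the replication genes were 0.14 in HSC, 0.0 in LMPP and 0.05 in CLP, beside 0.14, -0.04 and 0.04 over all genes tested. In HSC, 2 of 41 genes were past 2-fold lower in the null array, Tyms (-2.55) and Cdc45 (-1.46), where 5.85% of all genes were, and 0 were past 2-fold higher, where 8.42% were. In LMPP, Orc1 was past 2-fold higher (1.14), 1 of 41 genes where 5.82% of all genes were, and 0 were lower, where 3.76% were. In CLP, 0 of 42 genes were past 2-fold in either direction, where 11.9% of all genes were higher and 8.33% lower. The genes next to the threshold were Gins2 in HSC (0.94), Cdc45 (0.86 in LMPP, -0.96 in CLP), and Orc6 (0.95) and Mcm10 (0.88) in CLP. Mcm3 in HSC (0.02), Pola1 in LMPP and Rfc5 in CLP (both 0.0) had the differences nearest to 0. Sex-linked RNA moved with the genotype label, as Xist was well above background on all 3 null arrays and on 0 wild type arrays. The Y-linked genes Ddx3y and Eif2s3y were well above background on all 6 arrays and lower on the null array in each population. The part of sex in these differences was not tested and cannot be told apart from that of genotype. Of the 42 genes, Pola1 lies on the X chromosome.

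**Figure D4:**
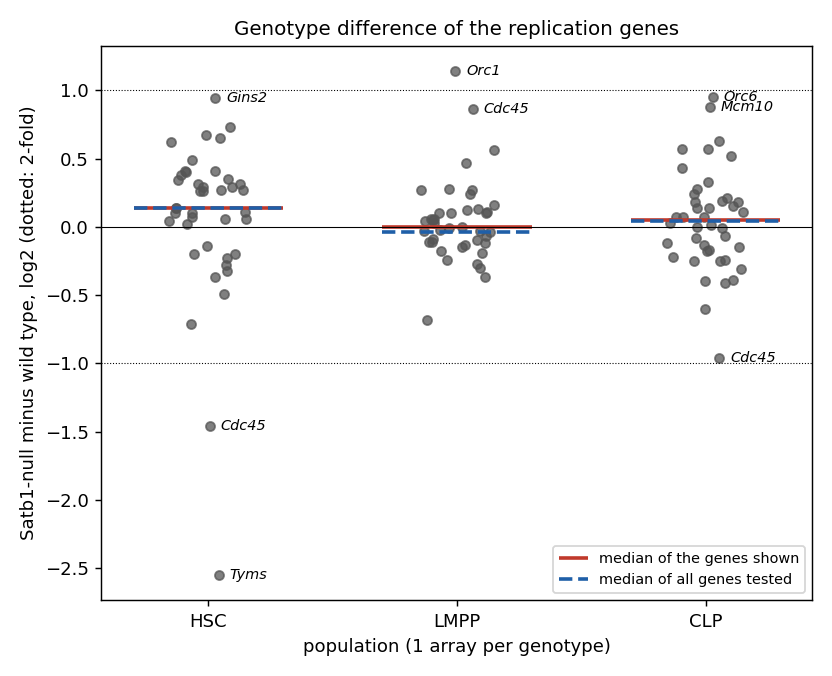
Null minus wild type difference (y axis, log2) of the replication genes within each population (x axis), 1 point a gene from 1 array per genotype, with the median of these genes as a solid line and that of all genes tested as a dashed line. The points centre near 0 in each population, and past the dotted 2-fold lines lie Tyms and Cdc45 in HSC and Orc1 in LMPP.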

How the data were processed

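Per the labels, 6.1 ng of total RNA of each sample was amplified and hybridised in 1 colour (Cy3). The deposited scanner files give each spot's linear intensity and come from Agilent Feature Extraction 10.10.1.1, per the file headers (the submitters' processing notes name 10.10), and the signal used is the one their column names call processed, on an array design built on mm9. The authors' deposited table of processed values is a linear intensity too, equal to that signal times a constant per array of 5.71 to 8.77, whose basis stays unknown; its column medians were 200.1, 140.2 and 120.7 in wild type (HSC, LMPP, CLP) and 165.3, 145.6 and 124.9 in the null set, with no gene centring and no ratio.

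Of 62976 spots an array, 3671 control spots and the outlier spots (154 to 181) were left out. Log2 signals were centred on each array's 75th percentile, and spots of a probe were averaged. RefSeq accessions (GRCm38.p6) named 27248 of 55681 probes, for 20667 genes, and a gene was read by its brightest probe. A value under background took the lowest signal that was well above it on that array as a floor (-4.187 to -3.761). limma 3.58.1 in R 4.3.3 (lmFit, eBayes) fitted population plus genotype, with 2 residual and 2.89 prior degrees of freedom, and was tested on simulated data. Differences of single arrays past 2-fold were counted without a test, and a bound against background is written "at least". Groups came from the sample titles and characteristics. The members and lists were chosen with earlier results of these data known, and the genes given in full are the largest called or, where under 3 were called, the 4 largest per contrast, those nearest to 0, those past 2-fold between genotypes and those whose probes disagree. The normexp alternative (offset 50) used the median spot signal in place of the mean signal that had been planned, because the files hold no mean signal. Slide could not be a block, since 1 slide held all arrays.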

Additional observations from a re-analysis of the deposited data

Results flagged for a closer look

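No group held enough arrays for a check of single arrays within a group. Effects that went opposite ways, past 1.5-fold each way, were looked for between populations and between genotypes, and 3 were listed in 2 genes. Each rests on single arrays, and the difference between the opposing values was not tested. Cdc45, the helicase subunit, had a null minus wild type difference of 0.86 in LMPP and -1.46 in HSC. In CLP it was -0.96, which also went opposite to LMPP past 1.5-fold. The LMPP minus HSC difference of Cdc45 was 1.34 in the null set and -0.99 in wild type. It comes from the same HSC and LMPP arrays as the first Cdc45 result, so these 2 are not separate observations. Tyms, thymidylate synthase, had an LMPP minus HSC difference of 0.94 in the null set and -1.59 in wild type. Each gene has 1 probe, which was well above background on all 6 arrays.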

How the results depend on the processing

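For 14 results, 184 alternative values were computed, and shifts among them are given below. The medians of LMPP minus HSC and of the genotype difference changed sign under 1 alternative each, given below. The number called between CLP and HSC (4) was 10 with median centring, 2 with the 75th percentile over probes well above background, 2 with quantile normalization, 13 with normexp, 2 with the authors' values, 0 without a detection filter and 10 at an adjusted p below 0.10, a threshold chosen after seeing the data. Between CLP and LMPP (3) it was 7 with normexp, 0 without a detection filter and 1 with the mean over probes. Leaving out 1 array (the lone array left is assumed to vary like the others, with 1 residual degree of freedom) gave 0 to 2 calls in both: without either HSC or either LMPP array 0, without the wild type CLP array 1 and without the null CLP array 2. All 4 genes called against HSC kept their direction, with limma adjusted p from 0.00152 to 0.157 for Rrm2, 0.00527 to 0.189 for Ccne1, 0.00894 to 0.281 for Tk1 and 0.00599 to 0.212 for Cdc6. In a fit over all 30573 probes singly, Rrm2 stayed called (0.0432) and Cdc6 (0.0645), Ccne1 (0.0628) and Tk1 (0.0788) did not. Over all genes, 1157 were called between CLP and HSC, 220 without a filter and 1979 with normexp, and between CLP and LMPP 1147, 202 and 2031.

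The median CLP minus HSC difference (0.7) was 1.09 with median centring, 0.39 with the 75th percentile over probes well above background, 0.54 with quantile normalization and 0.52 with the authors' values, and 0.54 to 0.73 without 1 array. The LMPP minus HSC median (0.21) was 0.39, -0.03, 0.07 and 0.04 in that order, and 0.21 to 0.3 without 1 array. The CLP minus LMPP median (0.37) was 0.58 with median centring and 0.37 to 0.5 without 1 array. The genotype median (0.07) was -0.01 with the 75th percentile over probes well above background and 0.03 to 0.17 without 1 array. Members called between LMPP and HSC and between genotypes stayed at 0 under every alternative run.

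The counts past 2-fold became, at 1.5-fold, 8 in HSC, 3 in LMPP and 5 in CLP between genotypes, and 1 (LMPP minus HSC), 10 (CLP minus LMPP) and 18 (CLP minus HSC) in both genotypes. At 3-fold they were 1 in HSC, 0 in LMPP, 2 (CLP minus LMPP) and 2 (CLP minus HSC). With normexp they were 1 in HSC, 0 in LMPP, 1 in CLP and 3 (CLP minus LMPP). Median centring gave 1 in CLP and 14 (CLP minus HSC), the 75th percentile over probes well above background gave 3 (CLP minus HSC), and no detection filter gave 2 in LMPP. The cause of these shifts was not tested. No pairing by embryo was possible because the labels give no replicate numbers and each group has 1 array. The fit itself compares populations within a genotype, and without the genotype term 0, 3 and 5 members were called (LMPP minus HSC, CLP minus LMPP, CLP minus HSC).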
